A study of Rattus norvegicus with 9 samples.

Results

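The comparison described here was between the brain hemisphere of rats after transient ischemia and reperfusion (I/R) and that of sham-operated rats (Sham), across all genes of the array and at day 14. It took 6 of the 9 arrays of the series, 3 per group with 1 array per rat, and the other 3 arrays (rats given Danhong injection) were not used in the tests. The rats were Sprague Dawley males on a normal diet, and their age was not given. In the I/R rats the middle cerebral artery had been occluded for 2 h with a nylon filament passed up the carotid artery and then reperfused, and only rats with a neurological deficit score above a set value counted as models. In the Sham rats the artery was exposed without a filament, and the solvent of the drug was injected into the tail vein every day until day 14. What the I/R rats were injected with was not stated separately. RNA came from the whole hemisphere, so that the core of the infarct, its border and spared tissue were measured together.

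Occlusion of the middle cerebral artery kills neurons in the territory it supplies, and in the following weeks microglia and blood-borne phagocytes clear the debris while astrocytes and fibroblasts close off the lesion. Phagocytes that take up dead cells and myelin have to handle large amounts of cholesterol, which cells sense through 2 systems with opposite roles. SREBP2 (gene Srebf2) switches on cholesterol synthesis when sterol is scarce, and the liver X receptors (Nr1h3 and Nr1h2) switch on cholesterol export when oxysterols accumulate. In bulk RNA, fewer cells of a type and less RNA per cell cannot be told apart, and the same holds for a gain of either.

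Signals are given here as the log2 intensity of a probe minus the 75th percentile of its array, so that 0 is the 75th percentile itself. A gene was represented by its brightest tested probe. It was called when the Benjamini-Hochberg adjusted p of limma was under 0.05 and the groups differed by more than 1.5-fold, and only called genes are said to have risen or fallen. Log2 fold changes are I/R minus Sham with their standard error (SE).

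All 6 arrays were on 1 slide and in 1 scan, with Sham 1 to 3 and I/R 1 in the first column of the slide and I/R 2 and 3 in the second column. The share of probes measured well above background was 76.4% to 78.9%, and none was saturated. The arrays did not weigh equally. On an axis that runs from 0 at the mean of the Sham arrays to 1 at that of the I/R arrays (each array left out of its own mean), Sham 1 to 3 lay at 0.107, -0.041 and 0.022, I/R 1 lay at 1.24, I/R 3 at 0.583 and I/R 2 between them, near to I/R 1. The median SD between arrays over the tested probes was 0.317 in I/R and 0.148 in Sham. Ttr, the transthyretin of the choroid plexus, read 6.53 on I/R 3 and between -1.65 and 0.19 on the other 5 arrays. The hemoglobin gene Hbb read 3.33 and 2.30 on Sham 2 and 3 and between -0.63 and 0.01 on the other 4. The part of choroid plexus and blood in the results was not tested.

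The cell type markers moved in different directions. Of 15 neuron markers 14 fell, with a median log2 fold change of -2.26, and 0 rose. Snap25, a protein of synaptic vesicle fusion, read between 4.52 and 5.26 in Sham and 0.80, 1.36 and 3.61 in I/R. Of 15 microglia and macrophage markers 14 rose, with a median of 3.60, while Cx3cr1, the fractalkine receptor of resident microglia, fell by 1.00 on the log2 scale (SE 0.28, adjusted p = 0.0299). Of 13 fibroblast and mural cell markers 8 rose and 0 fell (median 1.84), and of 12 markers of T, B and natural killer cells 9 rose and 0 fell (median 2.11). Of 10 oligodendrocyte markers 0 were called in either direction (median -0.13), and Mbp, the myelin basic protein gene, read between 6.82 and 6.92 in Sham and between 6.47 and 6.70 in I/R. Cd3e, which defines T cells, was not called (log2 fold change 1.15, SE 1.30, adjusted p = 0.492), while Cd3g rose by 2.71. The neuron calls rested on all arrays but I/R 3, since 0 of them were made without Sham 1, Sham 2, Sham 3 or I/R 2 and 9 without I/R 1, and the methods' t-test called 0 and the fit without scaling 5. The call of Cx3cr1 was lost without any 1 of Sham 1, Sham 2, Sham 3 and I/R 2.

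The change reached across a large share of the genome. Of 23672 probes tested, 9777 were called (41.3%), of which 4706 rose (19.9% of those tested) and 5071 fell (21.4%). The I/R and Sham values did not overlap in 62.7% of the probes. Taken by gene, 43% were called, and 3369 of 15557 rose (21.7%) and 3314 fell (21.3%), and the median log2 fold change over all genes was -0.08. Although the directions were balanced in number, they were not in size. Among the called genes, 1329 rose and 705 fell by more than 4-fold, 672 rose and 110 fell by more than 8-fold, and 276 rose and 18 fell by more than 16-fold. A total of 239 probes called higher were not well above background on any Sham array, and 195 called lower were not so on any I/R array.

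**Figure D1:**
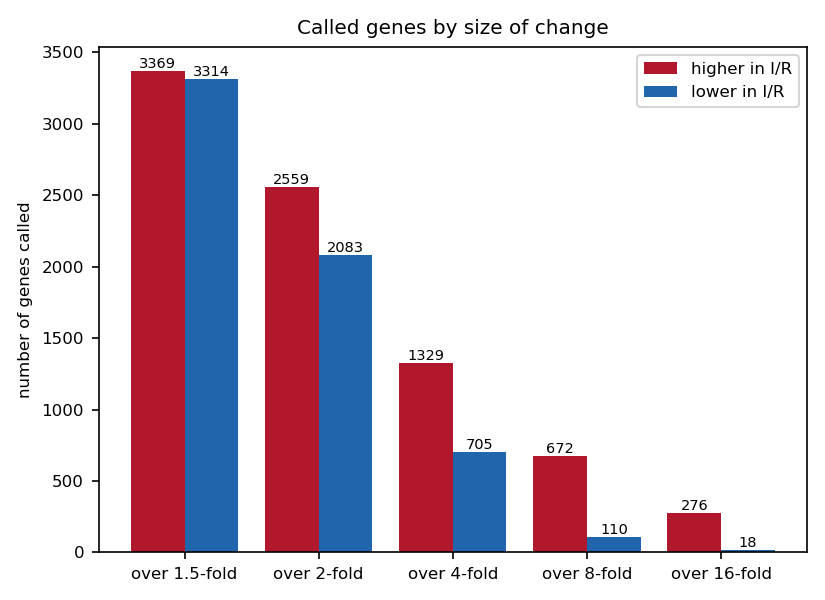
Number of genes called higher (red) or lower (blue) in I/R than in Sham (y axis) whose fold change exceeds the size on the x axis. The bars are level at 1.5-fold (3369 and 3314 genes) and part with size, to 276 against 18 genes at more than 16-fold.

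The number of calls depended on single arrays and on the processing. It was 6408 without Sham 1, 4128 without Sham 2, 4773 without Sham 3, 4772 without I/R 2, 7204 without I/R 1 and 12103 with I/R 3 left out. A fit with 1 array left out also has fewer residual degrees of freedom, so a lost call does not by itself show that it rested on that array. The methods' t-test with Benjamini-Hochberg adjustment called 6195, and a fit with array weights called 12784. All 9777 called probes kept their direction in each of these fits, which share arrays with the main fit. The t-test uses the same difference of means, so its direction could not change. Without any scaling between arrays the median log2 fold change over all probes moved from -0.10 to 0.10, and 76.5% of 8107 calls were then higher in I/R, in place of 48.1%. The lists below are therefore read against the median of all genes. Over all 15557 genes, rises numbered 2041 to 4127 and falls 1012 to 4023 with 1 array left out, most without I/R 3. Without scaling 4250 genes rose and 1273 fell. A list's number of calls under such a fit is to be read against these, since calls were lost or gained across all genes.

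**Figure D2:**
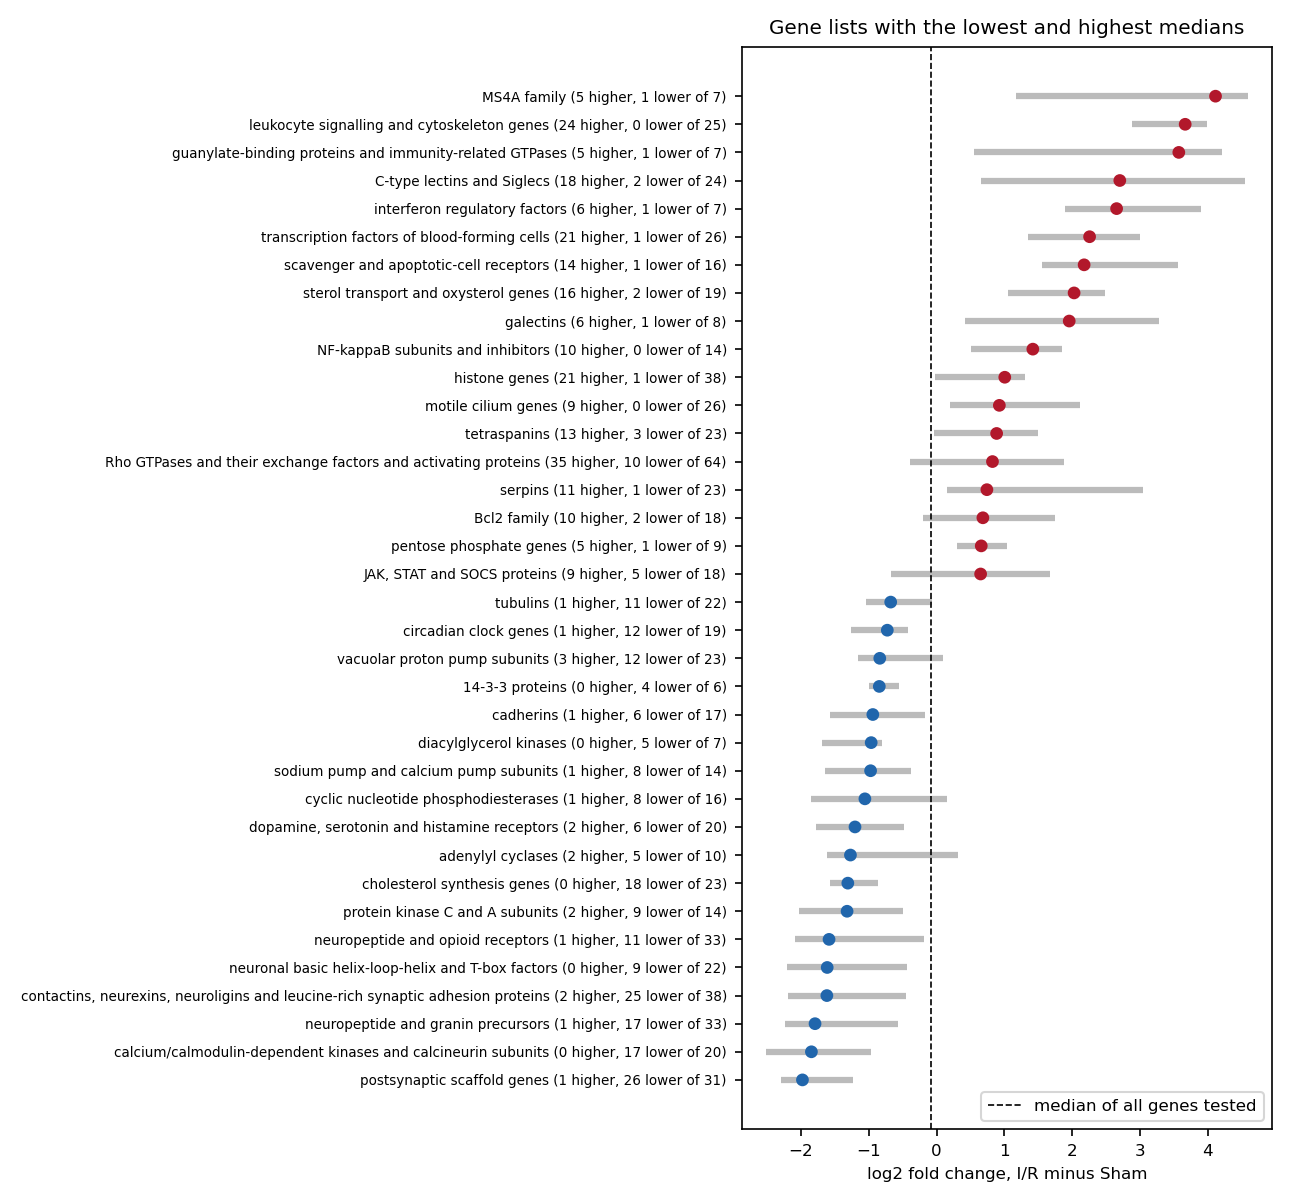
Median (point) and interquartile range (bar) of the log2 fold change, I/R minus Sham (x axis), in the 18 gene lists with the lowest and the 18 with the highest medians of 93 lists of functions and families, each with its numbers of called genes. Red points lie above and blue points below 0, and the dashed line marks the median of all genes tested (-0.08).

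The 10 largest rises were the following. Mmp12, the macrophage elastase, read -9.97, -8.99 and -9.99 in Sham and -0.47, 0.80 and -3.09 in I/R. Since its probe (chr8:4259057-4259413 of rn4) was not well above background on any Sham array, the difference is a bound of at least 241-fold (adjusted p = 0.0026). The Sham values lie at the background, and I/R 3 was the lowest of the 3 I/R arrays without reaching it. The same kind of bound was at least 298-fold for Slfn3, a schlafen gene of lymphocytes that RefSeq now lists as Slfn4, at least 131-fold for Cd8a, a coreceptor of cytotoxic T cells, and at least 138-fold for Clec7a, the beta-glucan receptor dectin-1. Lilrb4, an inhibitory receptor of myeloid cells, rose at least 172-fold, and Ly49si1, of the Ly49 receptors of natural killer cells, at least 86.5-fold. The other 4 were measured in both groups, Zbp1 on 1 of the 3 Sham arrays. Gpnmb, a glycoprotein of phagocytes full of lipid, read -2.82, -2.66 and -2.52 in Sham and 4.44, 4.87 and 3.57 in I/R, a log2 fold change of 6.96 (SE 0.34, adjusted p = 0.00125). Its I/R values were close to each other and far from the Sham values. Siglec1, the sialoadhesin of macrophages, rose by 7.44, and Zbp1, a sensor of nucleic acids, by 7.16. Spp1, the secreted phosphoprotein osteopontin, rose by 7.09 with wide spread in Sham, where it read -3.49, -5.80 and -1.44. The calls of these 10 genes held with any 1 array left out.

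The 10 largest falls were the following. Arc, an immediate early gene of synaptic plasticity, read 3.13, 4.70 and 4.28 in Sham and -2.84, -1.84 and 0.30 in I/R, so that the groups did not overlap (log2 fold change -5.50, SE 0.85, adjusted p = 0.00631). Npas4 and Egr4, which are also induced by neuronal activity, fell, Npas4 at least 34.1-fold to the background and Egr4 with a log2 fold change of -4.72. Lamp5, a membrane protein of cortical neurons, fell by 4.99, Cort (cortistatin, a peptide of cortical interneurons) by 4.80, and Tacr3, the neurokinin B receptor, had a log2 fold change of -4.54. The remaining 4 are not known for a role in cortex. Enthd1 read -2.27, -0.89 and -1.58 in Sham and -9.76, -9.14 and -7.85 in I/R, at least 108-fold lower, at a probe at chr7:118733966-118734025 of rn4. Its other tested probe also fell, at least 18.7-fold. Trim54, a muscle protein of the TRIM family, fell by 4.74, Cyp11b1, the steroid 11-beta-hydroxylase of the adrenal gland, by 4.67, and Olr59, listed as an olfactory receptor, by 4.35. The call of Tacr3 was lost without Sham 2, Sham 3 or I/R 2, and the calls of the other 9 held.

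Cholesterol synthesis fell as a whole. Of 23 genes of the pathway and its control 18 fell and 0 rose, with a median log2 fold change of -1.31. The count stayed between 18 and 19 with any 1 array left out and was 18 without scaling. Hmgcs1, the first committed enzyme of the pathway, read 4.30, 4.52 and 4.55 in Sham and 2.00, 1.93 and 3.03 in I/R. All I/R values lay below all Sham values, with I/R 3 the nearest to them (log2 fold change -2.14, SE 0.32, adjusted p = 0.00563). After Hmgcs1 in the sequence of enzymes, Mvk (-0.85), Idi1 (-1.61), Fdps (-1.54), Sqle (-1.29), Lss (-0.99) and Cyp51 (-1.29) fell. The regulators fell with them. Srebf2, the transcription factor of the pathway, read 2.63, 2.77 and 2.71 in Sham and 1.11, 0.92 and 1.67 in I/R (log2 fold change -1.47, SE 0.22), and Insig1, a target of SREBP2 that retains it in the endoplasmic reticulum, fell by 2.06 (SE 0.25). The genes not called included Mvd (-0.48), Dhcr7 (-0.36), Fdft1 (-0.32) and Ebp (0.24).

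Genes of sterol transport and oxysterols went the other way. Of 19 measured 16 rose and 2 fell, with a median of 2.03. Abca1, the exporter that loads cholesterol onto apolipoproteins, read -3.65, -3.59 and -3.82 in Sham and 0.75, 0.62 and -0.81 in I/R (log2 fold change 3.87, SE 0.42, adjusted p = 0.00247). Npc2, which carries cholesterol out of lysosomes, read 0.27, 0.00 and 0.32 in Sham and 4.44, 4.05 and 3.16 in I/R (log2 fold change 3.69, SE 0.34, adjusted p = 0.00183). Neither gene's groups overlapped. The genes Nr1h3 (2.09), Mylip (2.36) and Lpcat3 (2.07), a liver X receptor and known targets of it, rose, while the other receptor, Nr1h2, was not called (0.11, adjusted p = 0.567). Soat1 (2.69), which esterifies cholesterol for storage, Lipa (1.71), the lysosomal acid lipase, Ch25h (2.03) and Cyp7b1 (1.87), which make and break down 25-hydroxycholesterol, and Apoc1 (2.61) rose. Apoe, the main apolipoprotein of the brain, rose by 0.70 (SE 0.15). The 2 genes that fell are known as neuronal, Cyp46a1 (-1.98), the cholesterol 24-hydroxylase, and Abcg4 (-1.69). Their calls were lost without any 1 array but I/R 3, and the list then held 11 rises and 0 falls without Sham 2 or without I/R 2. The call of Apoe was lost without Sham 2, Sham 3 or I/R 2.

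Srebf1, the gene of the SREBP of fatty acid synthesis, did not follow Srebf2. It read 0.61, 0.71 and 0.83 in Sham and 3.47, 3.09 and 2.49 in I/R (log2 fold change 2.30, SE 0.26, adjusted p = 0.00272). Of 17 genes of fatty acid synthesis, elongation and desaturation 2 were higher (Srebf1 itself and Elovl5) and 4 lower, among them the elongases Elovl4 (-1.89) and Elovl6 (-1.48). The share of rises (11.8%) was below the 21.7% of all genes. That of falls (23.5%) was near the 21.3% of all genes. Without Sham 2 or without I/R 2 the list held 1 rise, which leaves out Elovl5, and 2 falls. Of 19 genes of mitochondrial fatty acid oxidation 10 rose and 1 fell (median 0.65). Acadl, the long-chain acyl-CoA dehydrogenase, read 1.19, 1.16 and 1.26 in Sham and 2.90, 2.66 and 1.99 in I/R (log2 fold change 1.31, SE 0.25, adjusted p = 0.0113). The gene that fell, Cpt1c (-1.01), is the carnitine palmitoyltransferase of neurons, and its call was lost without any 1 array but I/R 3. The number of rises in the list was 5 without Sham 1, 3 without Sham 2, 3 without Sham 3, 6 without I/R 1, 3 without I/R 2 and 13 with I/R 3 left out.

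**Figure D3:**
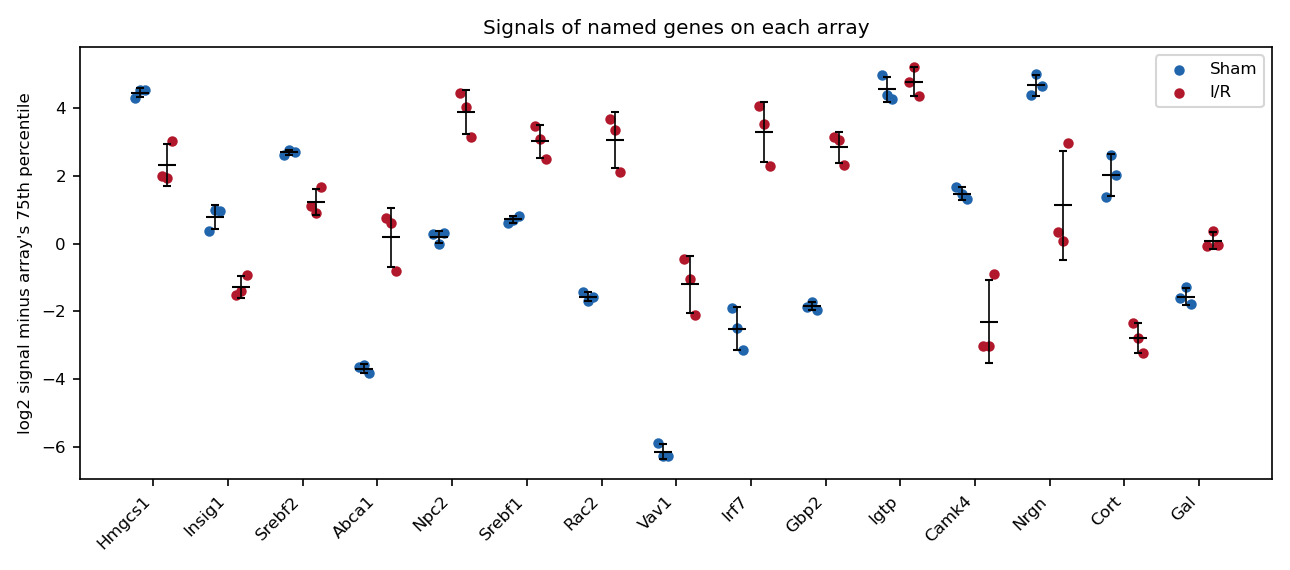
Signal of 15 genes on each array (y axis, log2 intensity minus the 75th percentile of the array), with Sham in blue, I/R in red, and the mean and SD of 3 arrays in black. In the I/R groups of most genes the last point, I/R 3, is the nearest to Sham, and for the brightest probe of Igtp, the one drawn, the groups overlap.

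The interferon-inducible GTPases are known as restriction factors against pathogens in vacuoles, and promoters of interferon-induced genes often hold an element made of the letters TTTC, 2 bases of any kind and TTTC again. Of 7 measured 5 rose and 1 fell, with a median of 3.57. Gbp2 read -1.85, -1.72 and -1.96 in Sham and 3.16, 3.05 and 2.32 in I/R (log2 fold change 4.69, SE 0.25, adjusted p = 0.00125). Gbp4 was not well above background on any Sham array and rose at least 23.3-fold, Gbp5 rose by 3.83 (SE 0.32) and Irgm by 3.57 (SE 0.24). The probes of Igtp disagreed. Its brightest probe, which stands for the gene in the counts, was not called and its groups overlapped, at 4.99, 4.40 and 4.29 in Sham and 4.77, 5.23 and 4.36 in I/R (adjusted p = 0.537), whereas the other 2 tested probes of Igtp rose, by 3.53 (SE 0.33) and 3.74 (SE 0.35). Gbp1 rose by 0.88 (SE 0.25, adjusted p = 0.0312), a call that was lost without Sham 1, Sham 3, I/R 1 or I/R 2, and Irgq fell by 1.64. Irf7, the interferon regulatory factor that amplifies interferon transcription, read -1.89, -2.49 and -3.14 in Sham and 4.06, 3.53 and 2.31 in I/R (log2 fold change 5.80, SE 0.53, adjusted p = 0.00179). Of 7 interferon regulatory factors 6 rose and 1 fell (median 2.66), Irf8 of myeloid cells by 4.59, Irf1 by 2.66 and Irf3 by 1.18. The call of Irf3 was lost without Sham 2, Sham 3, I/R 1 or I/R 2.

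The promoters of these GTPases are shown because most of the genes rose and most of the promoters hold the element. RefSeq promoters (assembly GRCr8, 250 bases before to 50 bases after the start of the gene) were given for 7 of the 7 genes, and this element, on either strand, stood in 5 of them (71.4%). They stood in 3.92% of all 33469 promoters, in 2.95% of those of tested genes with a promoter, in 5.03% of those of genes that rose and in 2.11% of those of genes that fell. The 5 are Gbp2, Gbp4, Gbp5, Irgm and Igtp, of which Igtp had probes that disagreed. Of 6 promoters of interferon regulatory factors, that of Irf7 held the letters. The 120 bases before the start follow, 5′ to 3′ on the strand of the gene, with the element in capitals.
Gbp2, chr2:234005607-234005726, plus strand: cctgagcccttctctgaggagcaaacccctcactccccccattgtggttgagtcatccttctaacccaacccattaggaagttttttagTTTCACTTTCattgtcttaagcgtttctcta
Gbp4, chr2:233978366-233978485, plus strand: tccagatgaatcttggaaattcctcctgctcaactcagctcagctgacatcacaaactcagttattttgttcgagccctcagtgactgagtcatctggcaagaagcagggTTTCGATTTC
Gbp5, chr2:233910879-233910998, plus strand: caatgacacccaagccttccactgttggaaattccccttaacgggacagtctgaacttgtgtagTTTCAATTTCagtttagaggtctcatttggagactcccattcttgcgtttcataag
Irgm, chr10:33742579-33742698, minus strand: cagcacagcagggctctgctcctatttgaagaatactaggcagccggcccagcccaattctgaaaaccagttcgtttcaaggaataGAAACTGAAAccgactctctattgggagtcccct
Igtp, chr10:42874927-42875046, plus strand: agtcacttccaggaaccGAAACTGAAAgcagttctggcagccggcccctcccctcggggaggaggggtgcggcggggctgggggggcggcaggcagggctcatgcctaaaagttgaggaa
Irf7, chr1:205800024-205800143, minus strand: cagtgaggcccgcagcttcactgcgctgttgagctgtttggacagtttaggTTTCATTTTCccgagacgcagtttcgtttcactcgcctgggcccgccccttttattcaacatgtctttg

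In Irgm and Igtp the same letters GAAACTGAAA, the element read on the other strand, were found, 25 to 34 bases and 94 to 103 bases before the start. In Gbp4 the element ended at the last base before the start. A match is only a description of the letters. For the cholesterol genes the letters TCACNCCAC of a sterol response element were searched in the same way and stood in 0 of 16 promoters given, against 1.12% of all promoters, which says only that these letters are not in these windows. The letters GAGGAAGT, bound by ETS factors of blood cells, stood in 2 of 17 promoters of the leukocyte signalling genes described next, Vav1 and Inpp5d (the call of Inpp5d was lost without any 1 array but I/R 3), and in 2.42% of all promoters.

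Genes of signalling and cytoskeleton that are known from leukocytes rose nearly without exception. Of 25 measured 24 rose and 0 fell, with a median of 3.67, and the count stayed between 22 and 24 with any 1 array left out. Vav1, an exchange factor for Rac in blood cells, read -5.88, -6.26 and -6.28 in Sham and -0.47, -1.03 and -2.11 in I/R (log2 fold change 4.94, SE 0.42, adjusted p = 0.00164). Rac2, the Rac of blood cells, read -1.43, -1.70 and -1.58 in Sham and 3.68, 3.36 and 2.13 in I/R (log2 fold change 4.63, SE 0.40, adjusted p = 0.0017). In both genes I/R 3 was the lowest I/R array and lay far above each Sham array. The kinases Syk (3.75) and Btk (3.82), the adaptors Lat2 (5.04) and Lcp2 (3.96), and the actin regulators Was (3.23) and Hcls1 (4.25) rose with them. Pik3r5, a regulatory subunit of a phosphoinositide 3-kinase, was the gene not called (-0.29, adjusted p = 0.157). Coro1a rose by 1.32, and its call was lost without any 1 array but I/R 3.

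Transcription factors of blood-forming cells followed, with 21 of 26 higher and 1 lower (median 2.26). Spi1, which encodes PU.1 of myeloid cells, rose by 3.95 (SE 0.38, adjusted p = 0.00197). Tfec and Cebpe were at the background in Sham and rose at least 8.67-fold and at least 9.27-fold. Ikzf2, the Helios factor, was the gene that fell, at least 2.82-fold and to the background. Receptors of phagocytes also rose. Of 24 C-type lectins and Siglecs 18 rose and 2 fell (median 2.70), of 16 scavenger and apoptotic-cell receptors 14 rose and 1 fell (median 2.18), and of 7 genes of the MS4A family 5 rose and 1 fell (median 4.12). Olr1, the receptor for oxidized low-density lipoprotein, read -6.36, -6.52 and -6.14 in Sham and 0.24, -0.35 and -1.11 in I/R (log2 fold change 5.93, SE 0.35, adjusted p = 0.00136). The receptor that fell, Tyro3 (-1.34), is the neuronal member of the Tyro3, Axl and Mertk kinases. Among secreted lectins, Lgals3 (galectin-3) read -1.08, -1.49 and -1.61 in Sham and 4.60, 4.83 and 3.76 in I/R, and 6 of 8 galectin genes rose.

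Signal transduction of inflammation moved to a lesser degree. Of 14 NF-kappaB subunits and inhibitors 10 rose and 0 fell (median 1.42), with Bcl3, a nuclear cofactor of NF-kappaB, the highest at 4.45 (SE 0.29). Of 18 JAK, STAT and SOCS genes 9 rose (50%) and 5 fell (27.8%), against 21.7% and 21.3% of all genes. Jak3 of lymphocytes (2.86) and Stat5a (2.24) rose, while Socs7 (-1.86) and Socs2 (-1.28) fell. The call of Socs7 was lost without any 1 array but I/R 3 and that of Socs2 without Sham 2, Sham 3 or I/R 1. Of 23 serpins 11 rose and 1 fell (median 0.74), led by Serping1, the inhibitor of complement C1, which read 0.78, 0.00 and 0.01 in Sham and 5.04, 4.79 and 4.08 in I/R (log2 fold change 4.38, SE 0.33).

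**Figure D4:**
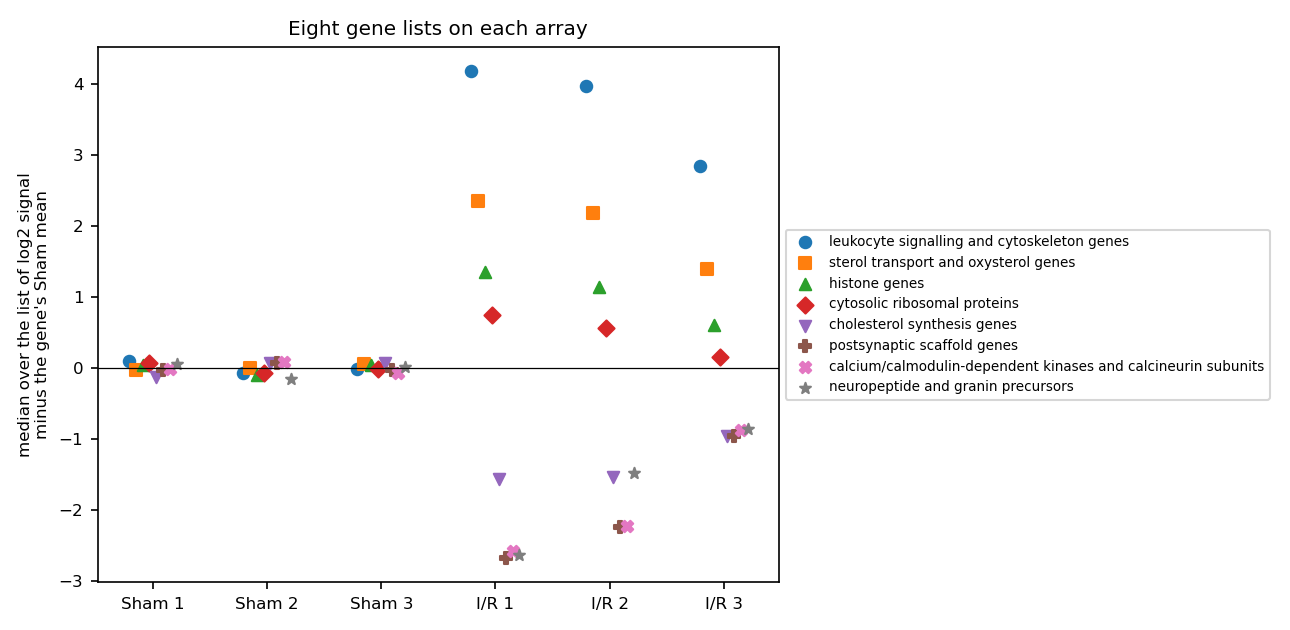
For 8 gene lists, the median over the list of the signal on an array minus the gene's mean over the Sham arrays (y axis, log2), on each of the 6 arrays (x axis). The Sham arrays lie near 0, and on I/R 3 each list lies nearer to 0 than on I/R 1 and I/R 2.

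Most genes of calcium/calmodulin-dependent phosphorylation fell, by different amounts. Of 20 calmodulin-dependent kinases and calcineurin subunits and related genes 17 fell and 0 rose, with log2 fold changes of the 20 from -3.99 to -0.26 and a median of -1.85. Camkk2, which activates some of the other CaM kinases, read -0.74, -0.46 and -0.78 in Sham and -4.97, -5.43 and -3.54 in I/R (log2 fold change -3.99, SE 0.48, adjusted p = 0.00314). Camk4, the nuclear CaM kinase of neurons, read 1.67, 1.46 and 1.31 in Sham and -3.01, -3.02 and -0.88 in I/R (log2 fold change -3.78, SE 0.59, adjusted p = 0.00659). Ppp3ca, the catalytic subunit of calcineurin, fell by 2.31 (SE 0.43). Camk2a (-2.84) and Camk2b (-2.72), the kinase subunits of the postsynaptic density, fell. The calls of Camk2a and Camk2b were lost without Sham 2, Sham 3 or I/R 2, that of Camk2b also without Sham 1. The falls of the list numbered 10 without Sham 1, 7 without Sham 2, 8 without Sham 3, 7 without I/R 2 and 10 when arrays were not scaled.

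Scaffolds of the postsynaptic density fell, 26 of 31 with 1 rise and a median of -1.98. Homer1 read 1.94, 2.07 and 1.88 in Sham and -0.72, -0.58 and 0.53 in I/R (log2 fold change -2.22, SE 0.34, adjusted p = 0.00629). Its paralog Homer3 read -5.03, -5.30 and -4.92 in Sham and -2.41, -2.79 and -3.38 in I/R and rose by 2.22 (SE 0.27, adjusted p = 0.0032), and Homer2 was not called (-0.32, adjusted p = 0.439). The Homer genes, which link glutamate receptors to calcium stores, thus moved apart. Nrgn (neurogranin) fell by 3.55, Dlg4 (PSD-95) by 2.27 and Shank3 by 2.09. The calls of Nrgn, Dlg4 and Shank3 were lost without Sham 2, Sham 3 or I/R 2, and those of Dlg4 and Shank3 also without Sham 1. The list held 16 falls without Sham 1, 7 without Sham 2, 8 without Sham 3, 10 without I/R 2 and 15 when arrays were not scaled. Of 38 contactins, neurexins, neuroligins and leucine-rich adhesion proteins 25 fell, with 11 falls without Sham 1, 6 without Sham 2, 5 without Sham 3 and 7 without I/R 2. The 2 that rose, Lrrc40 (0.88) and Lrrc42 (0.63), share the letters of the symbol and are not known as synaptic proteins.

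Neuropeptides fell, with 17 of 33 precursors lower, 1 higher and a median of -1.79. Cort, named above, read 1.39, 2.63 and 2.03 in Sham and -2.34, -2.79 and -3.22 in I/R, and was among the genes in which I/R 3 was not the nearest to Sham. Crh, the corticotropin-releasing hormone, fell by 3.06 (SE 0.34), Vgf, a secreted peptide precursor induced by neurotrophins, by 3.01 (SE 0.28), Sst (somatostatin) by 2.55 (SE 0.41) and Npy (neuropeptide Y) by 2.17 (SE 0.30). Gal was the precursor that rose. Galanin, a peptide that neurons raise after injury to their axons, read -1.62, -1.27 and -1.79 in Sham and -0.06, 0.37 and -0.04 in I/R (log2 fold change 1.65, SE 0.20, adjusted p = 0.0032). Trh read -4.59, -8.75 and -7.33 in Sham and -3.65, -2.47 and -4.86 in I/R, and with this spread it was not called (adjusted p = 0.06). The falls numbered 7 without Sham 1, 8 without Sham 2, 7 without Sham 3, 9 without I/R 1 and 8 without I/R 2, and the rises 3 without Sham 1. When arrays were not scaled, 7 precursors fell and 2 rose. Of 33 receptors of neuropeptides 11 were lower (33.3%, against 21.3% of all genes) and 1 higher, with a median of -1.59. With 1 array left out 5 to 17 receptors were lower, fewest without Sham 3 or without I/R 2 and most without I/R 3. When arrays were not scaled, 7 receptors were lower.

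Clock genes were lower. Of 19 measured 12 fell and 1 rose, with a median of -0.73. Per2, a repressor of the clock, read -1.53, -1.46 and -1.47 in Sham and -3.79, -3.70 and -2.58 in I/R (log2 fold change -1.87, SE 0.33, adjusted p = 0.00959), and Hlf, an output factor of the clock, fell by 2.02 (SE 0.37). The clock's activator Arntl fell by 0.93, a call lost without any 1 array but I/R 3. Per1 (-0.24, adjusted p = 0.368), Nr1d1 (-0.09, adjusted p = 0.791) and the brighter probe of Clock (-0.45, adjusted p = 0.084) were not called, while the other probe of Clock fell by 0.77 (SE 0.13). Bhlhe41 rose by 1.49, with the call lost without any 1 array but I/R 3. The falls numbered 7 without Sham 1, 5 without Sham 2, 6 without Sham 3, 7 without I/R 2 and 7 when arrays were not scaled. The hour of the day at which the tissue was taken was not given.

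Protein synthesis and energy metabolism shifted by smaller amounts. All 79 genes of cytosolic ribosomal proteins had a log2 fold change above 0, from 0.03 to 1.13 with a median of 0.48, and 28 of them rose. Rps4x read 2.31, 2.32 and 2.43 in Sham and 3.73, 3.60 and 3.13 in I/R (log2 fold change 1.13, SE 0.19, adjusted p = 0.00784). The rises numbered 2 without Sham 1, 1 without Sham 2, 1 without Sham 3, 4 without I/R 1, 1 without I/R 2 and 49 with I/R 3 left out, and 54 when arrays were not scaled, while the median stayed between 0.36 and 0.65 with 1 array left out. Ribosomal protein genes have many processed copies, and a probe may read such copies with the gene. Of 69 mitochondrial ribosomal proteins 11 fell (15.9%, below the 21.3% of all genes) and 0 rose, with a median of -0.37. Mrpl38 read -0.84, -0.59 and -0.85 in Sham and -2.12, -1.97 and -1.62 in I/R (log2 fold change -1.14, SE 0.18, adjusted p = 0.00658). The falls numbered 6 without Sham 1, 1 without Sham 2, 2 without Sham 3, 4 without I/R 1, 1 without I/R 2 and 18 with I/R 3 left out, and 1 without scaling.

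Of 21 genes of the tricarboxylic acid cycle and pyruvate dehydrogenase 11 fell and 2 rose (median -0.63). Idh2, the mitochondrial isocitrate dehydrogenase that makes NADPH, read 2.43, 2.45 and 2.43 in Sham and 3.82, 3.75 and 3.13 in I/R (log2 fold change 1.13, SE 0.21, adjusted p = 0.0105), and Suclg2, which makes GTP, rose by 0.95. Got1 (-1.92) and Mdh1 (-1.43), of the malate-aspartate shuttle, fell, with calls lost without Sham 1, Sham 2, Sham 3 or I/R 2. The list held 5 falls without Sham 1 and 0 without Sham 2, without Sham 3, without I/R 2 or without scaling. Of 9 genes of the pentose phosphate pathway 5 rose and 1 fell (median 0.66), led by H6pd (1.80), the enzyme of the endoplasmic reticulum, and Rpia (1.26). The rises numbered 3 without Sham 1 and 1 without Sham 2, Sham 3 or I/R 2, which left Rpia and lost H6pd. The other tested probe of H6pd was not called (0.72).

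Of 20 genes of endoplasmic reticulum stress 8 rose and 1 fell (median 0.40). Sdf2l1, a cochaperone of the reticulum, read 0.11, -0.23 and 0.30 in Sham and 2.87, 2.54 and 2.02 in I/R (log2 fold change 2.42, SE 0.26, adjusted p = 0.00243), and the disulfide isomerases Pdia4 (1.14) and Pdia3 (0.95) rose. Hspa5 (0.30, adjusted p = 0.125) and Ddit3 (0.06, adjusted p = 0.703), which are used as markers of that stress, were not called, and Atf4, its transcription factor, fell by 0.63, a call lost without Sham 2, Sham 3 or I/R 2. Among 75 heat shock proteins and chaperonins 7 rose and 19 fell (25.3%, near the 21.3% of all genes), with a median of -0.35. Dnajc22 read -4.85, -5.17 and -4.62 in Sham and 0.61, 0.22 and -1.02 in I/R (log2 fold change 4.82, SE 0.43), and Hspb1, a small heat shock protein, rose by 2.53 (SE 0.29). The falls numbered 8 without Sham 1, 2 without Sham 2, 3 without Sham 3, 9 without I/R 1, 2 without I/R 2 and 2 when arrays were not scaled, where 9 rose.

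Several families held members that rose and members that fell, which a family's median does not show. Since 21.7% of all genes rose and 21.3% fell, holding both is not particular to these families, which are given as examples. In the vacuolar proton pump, which acidifies lysosomes and synaptic vesicles, 3 of 23 subunits rose (13.0%) and 12 fell (52.2%). Tcirg1, the a3 subunit of osteoclasts and macrophages, read -0.08, -0.49 and -0.41 in Sham and 2.95, 2.79 and 1.45 in I/R (log2 fold change 2.72, SE 0.41, adjusted p = 0.006). Atp6v0d2, which is also known from osteoclasts and macrophages, rose at least 5.74-fold from the background, and Atp6v0e1 rose by 1.55. Atp6v1g2, the subunit of neurons, read 3.14, 3.41 and 3.29 in Sham and 0.02, 0.56 and 2.46 in I/R and fell by 2.26, a call lost without any 1 array but I/R 3. The rises numbered 3 or 4 in each of these fits, whereas the falls numbered 4 without Sham 1, 0 without Sham 2, 1 without Sham 3, 6 without I/R 1, 0 without I/R 2 and 0 when arrays were not scaled.

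Among 22 tubulin genes 11 fell (50%) and Tubb6 alone rose (4.5%, below the 21.7% of all genes). Tubb6, a beta-tubulin of non-neuronal cells, read -2.95, -2.84 and -3.13 in Sham and 0.24, 0.07 and -0.61 in I/R (log2 fold change 2.87, SE 0.25, adjusted p = 0.00168). Tuba3a fell by 3.16 (SE 0.42) and Tubb3, the beta-tubulin of neurons, by 1.73, with the call of Tubb3 lost without Sham 1, Sham 2, Sham 3 or I/R 2. Tubulin genes are near-identical in sequence, so that a probe may read more than 1 of them. The falls numbered 5 without Sham 1, 2 without Sham 2, 4 without Sham 3, 3 without I/R 2 and 3 without scaling.

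Of 29 G protein subunits 10 rose (34.5%) and 9 fell (31.0%), against 21.7% and 21.3% of all genes. Gna15, the G-alpha subunit of blood cells, read -4.52, -4.77 and -4.63 in Sham and -0.18, -0.26 and -1.62 in I/R (log2 fold change 3.95, SE 0.40, adjusted p = 0.00206), and the gamma subunit Gngt2 rose by 4.87 (SE 0.50). Gnai2 (1.08) and Gnai3 (1.39) rose while Gnao1, the Go subunit abundant in neurons, fell by 1.85 (SE 0.34) and Gng13 by 2.76. The call of Gnai2 was lost without Sham 2, that of Gng13 without any 1 array but I/R 3, and the falls of the list numbered 2 without Sham 1, Sham 2, Sham 3 or I/R 2 and 3 without I/R 1, with 6 rises without Sham 2, and 13 rose and 3 fell when arrays were not scaled. Of 10 adenylyl cyclases 2 rose (20%) and 5 fell (50%). Adcy4 read -5.64, -5.82 and -5.76 in Sham and -1.54, -1.80 and -2.83 in I/R (log2 fold change 3.68, SE 0.34), and Adcy1, the calcium-activated cyclase of neurons, read -4.53, -3.79 and -3.88 in Sham and -7.03, -7.12 and -5.79 in I/R (log2 fold change -2.58, SE 0.41). In both genes the groups did not overlap, and both calls held with any 1 array left out, although the falls of the list numbered 1 or 2 without any 1 array but I/R 3 and 1 when arrays were not scaled. In the Bcl2 family 10 of 18 genes rose (55.6%) and 2 fell (11.1%). Bcl2a1d, which blocks apoptosis in myeloid cells, rose by 4.35 (SE 0.41) and Bmf, which promotes it, by 3.47 (SE 0.52). Bcl2l2, which blocks apoptosis and is known from neurons, fell by 1.48. Without Sham 2 or without I/R 2 the family held 5 rises and 0 falls.

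**Figure D5:**
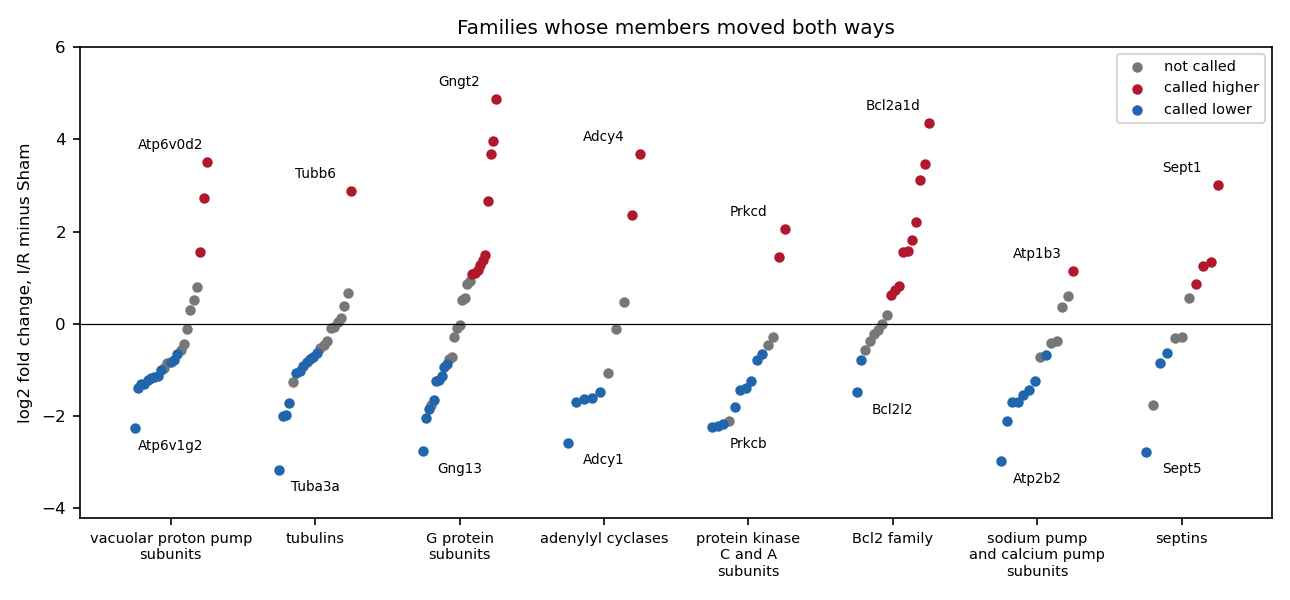
Log2 fold change, I/R minus Sham (y axis), of each tested gene in 8 families (x axis), coloured by the call and ordered by value within the family, with the lowest and the highest gene named. Each family holds genes called higher and genes called lower, such as Tcirg1 (2.72) and Atp6v1g2 (-2.26) in the vacuolar proton pump, where Atp6v0d2 is drawn at its fitted value although its Sham arrays were at the background.

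Histone genes rose, 21 of 38 with 1 fall and a median of 1.01, and at least 14 of them with any 1 array left out. Hist1h3f read -7.03, -6.79 and -7.15 in Sham and -4.18, -4.03 and -4.37 in I/R, with little spread in either group (log2 fold change 2.79, SE 0.16, adjusted p = 0.00136). It belongs to the replication-dependent clusters, which are used during the S phase, as does the linker histone gene Hist1h1b, which rose by 1.59. Of the variants used outside the S phase, H3f3b rose by 0.95, a call lost without Sham 2 or without I/R 2, and H2afz (0.06) and H1f0 (0.15) were not called. Histone genes are near-identical copies, and their messages mostly lack a poly(A) tail, so that the level of a single gene is uncertain. In the same direction, Ube2c, which drives the exit from mitosis, rose by 3.58 (SE 0.36), and Kif20a, a kinesin of cell division, by 3.12 (SE 0.30).

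Genes of motile cilia rose in 9 of 26 (34.6%, against 21.7% of all genes) and fell in 0 (median 0.93). The list did not move on every I/R array. Its median signal minus the Sham mean was 0.05 on I/R 1, 1.34 on I/R 2 and 1.31 on I/R 3. Foxj1, the transcription factor of motile cilia, read -3.68, -3.89 and -2.67 in Sham and -0.03, 0.04 and -0.08 in I/R (log2 fold change 3.39, SE 0.33, adjusted p = 0.00194), and in this gene I/R 3 did not differ from the other I/R arrays. The dynein gene Dnah1 rose with a wide spread (SE 0.97 on the log2 scale), and its call was lost without Sham 1, Sham 2, I/R 2 or I/R 3. The rises numbered 5 without Sham 1, Sham 2 or I/R 2 and 16 without I/R 1, and 5 without I/R 3, the array on which Ttr was high, with 1 fall without I/R 1 and 2 without I/R 3. Over all 15557 genes 4127 rose without I/R 3. Of 9 choroid plexus and ependymal markers 3 rose (33.3%, against 21.7% of all genes) and 0 fell. Folr1, a folate receptor of the choroid plexus, read -5.92, -5.92 and -4.03 in Sham and -1.30, -0.76 and -0.27 in I/R.

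Probes for chemosensory receptors showed changes in brain. Of 266 genes tested among the olfactory receptors of the array, which holds 1168, 9 rose and 35 fell, with a median of -0.28. Both shares are below those of all genes for rises (21.7%) and falls (21.3%). Olr1, counted here by its symbol, is the lipoprotein receptor described above. Olr59 read -2.13, -0.83 and -1.30 in Sham and -5.79, -6.25 and -5.27 in I/R (log2 fold change -4.35, SE 0.40, adjusted p = 0.00185). Vom1r78 fell by 4.01 (SE 0.51) and Vom2r15 by 3.84 (SE 0.59), both listed as vomeronasal receptors. All 3 were well above background on every array. Cyp11b1 read -0.70, 0.11 and -0.80 in Sham and -5.40, -5.89 and -4.13 in I/R, and its neighbour and near copy Cyp11b2 fell at least 10.9-fold to the background. Whether these probes read the named gene or another transcript was not tested. The falls of olfactory receptors numbered 17 without Sham 2, 19 without Sham 3, 22 without I/R 2, 20 when every array had to be above background and 14 with normexp background correction, and without scaling 15 rose and 19 fell.

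Families were also formed from the symbols alone, taking the letters before the first digit. Of 151 such stems with at least 10 genes tested, 62 had a median log2 fold change above 0 and 89 below 0. The median of all genes was -0.08 and moved to 0.11 without scaling, so the split around 0 depends on the scaling. The highest medians were those of Cxcl (4.24, 9 of 11 genes higher and 0 lower), Clec (2.53, 12 of 18 higher), Col (2.27, 24 of 33 higher), Casp (2.02, 8 of 10 higher), Itgb (1.96), Ccl (1.82), Bmp (1.31) and Tnfrsf (1.18), which stand for chemokines, C-type lectins, collagens, caspases, integrin beta chains, bone morphogenetic proteins and receptors of the tumor necrosis factor family. The lowest were those of Syt (-2.17, 11 of 15 lower and 0 higher), Scn (-1.78, 7 of 13 lower), Kcnk (-1.57), Htr (-1.51), Cacna (-1.47, 10 of 12 lower), Kcnj (-1.38), Fgf (-1.31, 9 of 14 lower and 0 higher) and Adcy (-1.27), which stand for synaptotagmins, sodium channels, potassium channels, serotonin receptors, calcium channels, fibroblast growth factors and adenylyl cyclases. Among the receptors of these growth factors, Fgfr1 rose by 1.53 (SE 0.23). Fgf9, a growth factor of neurons and glia, read -1.94, -1.59 and -1.73 in Sham and -5.84, -4.56 and -3.23 in I/R and fell by 2.79, a call lost without Sham 2, Sham 3 or I/R 2.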

How the data were processed

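RNA from 6 brain hemispheres (3 Sham, 3 I/R, grouped by the titles of the samples) had been hybridised to 1-color Agilent arrays. The deposited files give spot intensities from Agilent Feature Extraction 10.7.1.1, which the authors left corrected for background and unscaled, and a table of log2 values that followed quantile-normalized intensities (Pearson's r 0.9995). Probe coordinates are those of rn4. From the intensities, log2 values minus each array's 75th percentile were computed without control and outlier spots. Probes well above background on all 3 arrays of a group were tested with limma 3.58.1 in R 4.3.3 (lmFit and eBayes, 4 residual degrees of freedom). Where no array of a group measured a probe above background, the fold is a bound ("at least"), the mean of the other group against the lowest signals measured. Data were simulated with 1 SD per probe for both groups, taken from this comparison (23672 probes, 200 changed). Of changes of 1 log2 unit 15.0% were recovered and of changes of 2 units 70.0%, with 5 false calls. The wider spread of I/R (median SD 0.317, against 0.148 in Sham) was not part of the simulation. In the data themselves 9777 probes were called. The Benjamini-Hochberg cutoff depends on how many probes change, so these rates do not carry over to the calls reported here. Groups were numbered alike, but same-numbered arrays did not deviate together (correlations 0.067, -0.286 and 0.145), so no pairing was used.

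The members and the 103 lists were chosen with earlier results of these data known, so no test was made over a list. Named genes are the 10 largest rises and 10 largest falls among called genes whose groups did not overlap (symbols starting with LOC, RGD or MGC left out), up to 2 called rises and 2 called falls of each list, the first 3 measured markers of each cell type, and examples chosen after their values were seen. The arrays of a group are taken as separate rats, and 3 per group limits the precision. The settings tried were other normalizations, backgrounds, filters, models and tests, and leaving out each array. Columns of per-sample values not used numbered 0. A few genes that the rule names are not reported here.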

Additional observations from a re-analysis of the deposited data

How the results depend on the processing

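All 9777 called probes kept their direction under every setting that measured them (8920 of them were tested with the filter on all 6 arrays). The t-test, the unadjusted p, the replicate block, the model of all 9 arrays and both changes of filter use the same difference of group means, so they could not change it. Leaving out the scaling moved all probes by about the same amount (median from -0.10 to 0.10). This is less than the 1.5-fold of a call, so it could not change the direction either. The fits with 1 array left out share their other arrays with the main fit, so the agreement is not independent support. The number of calls was 6195 with the methods' t-test (9461 before adjustment) and 4128 to 12103 with 1 array left out, and the share of calls higher in I/R was then 49.9% to 63.8%. That share was 48.1% as reported, with an exact binomial 95% interval of 47.1% to 49.1% that covers counting error only. It was 46.5% after quantile normalization and in the authors' log2 table, 76.5% without scaling and 49.4% without the filter on dim probes. With all 9 arrays in 1 model it was 52.0%, and with the methods' t-test 54.0%. Array weights (an iteration that stopped early) gave 12784 calls, of which 50.5% were higher in I/R. With the replicate number as a block the count was 8335 and the share 48.8%; the numbers did not pair the samples, and not every array correlated best with its own number. Among the lists, the methods' t-test with Benjamini-Hochberg adjustment called 4 rises of cytosolic ribosomal proteins and 10 falls of calcium/calmodulin-dependent kinases. It called 9 falls of postsynaptic scaffolds, 7 of synaptic adhesion proteins, 7 of neuropeptides and 8 of clock genes. The cause of these shifts was not tested. Signal over background limits the genes given as bounds, and 3 arrays per group limit the rest.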
